A study of Mus musculus with 18 samples.

Results

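The mesothelial cells of the mouse urinary bladder were taken from 7 single-cell libraries by 4 transcripts, Upk3b, Msln, Lrrn4 and Nkain4. A cell barcode with at least 500 UMIs (unique molecular identifiers, 1 per counted RNA molecule) was a member when those genes together had at least 3 UMIs from at least 2 of them and made up at least 0.1% of its UMIs, while the superficial urothelial genes Upk1a, Upk2 and Upk3a made up less than 0.3%. The rule found 390 of 35289 barcodes (1.11%). Measured expression chose the members, so their levels of those genes are given here as a description. Fibroblasts were the barcodes outside both epithelial classes with at least 1% of UMIs from Dcn, Col1a1 and Col3a1 (17429 barcodes), and urothelial cells had at least 0.5% from the uroplakins (3451 barcodes).

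The study profiled bladders of C57BL/6 mice by single-cell and single-nucleus sequencing, by spatial sequencing of frozen sections and by bulk RNA sequencing. Each cell library pooled several animals. The whole-bladder libraries came from 3 males of 22 months, 3 males of 3 months, 2 females with 2 males of 12 months in each of 2 libraries, and 2 females with 2 males of 24 months. The detrusor-only library held the muscle layer of 3 females of 14 months, and the detrusor-enriched library, which its labels call whole bladder enriched for detrusor, came from 2 females with 2 males of 14 months. It held 242 urothelial cells, and the name whole-bladder is kept here for the 5 libraries without that enrichment. Nuclei came from 2 females with 2 males of 12 months. Of the 4 sections, 2 came from a group of 4 males of 22 months and 2 from a group of 4 males of 14 months. Bulk libraries came from females of 12 months, 3 from intact and 3 from dissociated bladder, each labelled with 3 animals. The labels name no transgene or treatment. Both detrusor libraries were of 14 months, an age that no whole-bladder library had, so age and preparation cannot be told apart. Their count tables held 31053 genes, against 27998 in the 12-month and 24-month and 27775 in the 22-month and 3-month whole-bladder libraries. Barcodes had 14 bases in the 22-month and 3-month male libraries and 16 in the other cell libraries. The gene table thus cannot be told apart from preparation, nor the barcode length from the all-male libraries. The detrusor-only library was also of females alone, while the detrusor-enriched library had the sex mix of 3 of the 5 whole-bladder libraries.

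The mesothelium is the flat epithelium that covers the peritoneal organs, including the outer (serosal) face of the bladder dome. It arises from mesoderm and carries microvilli, tight junctions and a mucin-rich surface on its free side, makes fluid that lets organs slide, and rests on a basement membrane above connective tissue. Wt1 is a zinc-finger regulator of mesothelium, Msln (mesothelin) is a surface protein that binds the mucin Muc16, and Upk3b is a uroplakin that mesothelium shares with urothelium. Lrrn4 is a leucine-rich repeat membrane protein, and Nkain4 encodes a protein that interacts with the sodium pump.

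Upstream sequences are shown for genes whose transcripts rose together in the mesothelial cells in every library fitted (values follow). Of 20 genes looked up (the rule genes, the markers outside the rule, the largest rises and C3), 14 had an entry in RefSeq's promoter table for GRCm38.p6. The runs below are the 250 bases before the annotated start, read 5′ to 3′ on the gene's strand: Upk3b at chr5:136038246-136038495 on the plus strand, Lrrn4 at chr2:132880863-132881112 on the minus strand, Muc16 at chr9:18674604-18674853 on the minus strand, Myl7 at chr11:5898783-5899032 on the minus strand and Slpi at chr2:164356508-164356757 on the minus strand. Capitals mark 3 motifs searched on both strands, so that a match on the other strand appears as its reverse complement. The first was GATAA, the core letters that GATA factors read. The second was GGAATG, which TEAD factors read. The last was GNGTGGGNG, a pattern that WT1 and EGR proteins read.
Upk3b: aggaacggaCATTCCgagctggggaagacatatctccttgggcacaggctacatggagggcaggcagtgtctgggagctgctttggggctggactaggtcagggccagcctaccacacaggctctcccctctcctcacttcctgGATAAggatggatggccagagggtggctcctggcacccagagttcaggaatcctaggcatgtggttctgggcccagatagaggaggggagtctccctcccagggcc
Lrrn4: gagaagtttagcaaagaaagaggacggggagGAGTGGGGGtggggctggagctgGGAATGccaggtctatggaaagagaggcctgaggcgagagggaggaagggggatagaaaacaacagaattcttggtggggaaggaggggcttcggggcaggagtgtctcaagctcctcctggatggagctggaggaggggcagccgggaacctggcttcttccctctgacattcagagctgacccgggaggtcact
Muc16: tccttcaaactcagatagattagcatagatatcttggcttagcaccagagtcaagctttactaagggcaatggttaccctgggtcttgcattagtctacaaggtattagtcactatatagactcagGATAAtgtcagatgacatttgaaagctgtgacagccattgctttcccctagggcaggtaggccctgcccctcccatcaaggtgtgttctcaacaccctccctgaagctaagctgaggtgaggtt
Myl7: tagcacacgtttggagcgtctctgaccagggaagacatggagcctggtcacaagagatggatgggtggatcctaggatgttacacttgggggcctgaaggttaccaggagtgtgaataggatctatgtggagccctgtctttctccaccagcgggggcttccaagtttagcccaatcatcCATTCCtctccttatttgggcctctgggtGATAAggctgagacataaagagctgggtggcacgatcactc
Slpi: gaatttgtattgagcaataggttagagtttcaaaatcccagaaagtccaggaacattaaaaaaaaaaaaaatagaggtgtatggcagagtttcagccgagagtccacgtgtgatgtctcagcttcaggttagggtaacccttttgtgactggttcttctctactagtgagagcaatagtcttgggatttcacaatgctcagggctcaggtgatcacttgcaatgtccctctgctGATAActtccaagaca
GATAA lay 106 bases before the Upk3b start (position -106), and at -124 for Muc16, -41 for Myl7 and -16 for Slpi. GGAATG or its complement lay at -241 for Upk3b, -196 for Lrrn4 and -70 for Myl7, and GNGTGGGNG at -219 for Lrrn4. No match overlapped another in these runs. Over the 14 genes, 7 held GATAA, 5 held GGAATG and 1 held GNGTGGGNG, while 22.5%, 12.6% and 12.7% of 32526 promoters of the same length held them. The matches describe letters in these windows and do not show binding.

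The members were found in all 7 cell libraries, at 111 of 9080 barcodes in the 22-month male, 28 of 6378 in the 3-month male, 14 of 3023 in the first 12-month, 5 of 1021 in the second 12-month and 29 of 3224 in the 24-month whole-bladder library. The detrusor-only library gave 137 of 6400 and the detrusor-enriched library 66 of 6163. The shares were 1.22% (95% exact binomial interval 1.01 to 1.47), 0.439% (0.292 to 0.634), 0.463% (0.253 to 0.776), 0.490% (0.159 to 1.14) and 0.900% (0.603 to 1.29) in that order of whole-bladder libraries. They were 2.14% (1.80 to 2.53) in the detrusor-only library and 1.07% (0.829 to 1.36) in the detrusor-enriched library. These intervals cover counting error only. The mean share was 1.61% over the detrusor libraries and 0.703% (SD 0.347, n = 5) over the whole-bladder libraries, and the detrusor-enriched value lay below that of the 22-month male library. The difference of 0.903 percentage points had p = 0.190 in an exact two-sided permutation test, where 0.0952 was the smallest p the design allowed. Without the detrusor-only library the difference was 0.368 percentage points, without the detrusor-enriched library 1.44, and over the members under the 1% fibroblast limit alone 0.113. The order of the detrusor-enriched and 22-month male libraries depended on the rule. It reversed with at least 1000 UMIs (1.43% against 1.24%), with the stricter rule below (0.828% against 0.771%) and under the fibroblast limit. It also reversed in cells chosen without Upk3b or Nkain4, the latter leaving 76 of the 111 members at 22 months. The order stayed with doublets or high mitochondrial shares removed, and in cells chosen without Msln or Lrrn4.

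**Figure D1:**
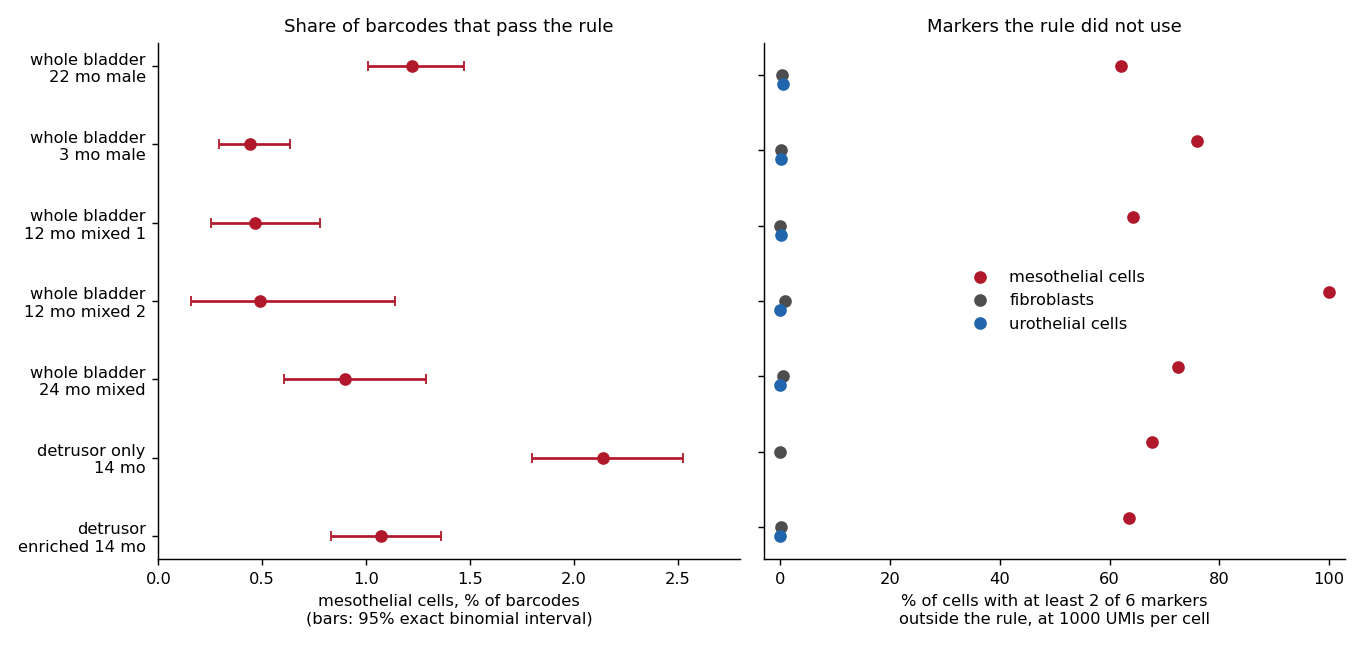
Left, the percent of barcodes of each cell library that passed the mesothelial rule, with 95% exact binomial intervals. Right, the percent of cells of each class with at least 2 of 6 mesothelial markers outside the rule, each cell thinned to 1000 UMIs. The detrusor-only library had the highest share at 2.14%, and the mesothelial cells of each library stood far to the right of the fibroblasts (at most 0.775%) and urothelial cells (at most 0.575%).

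Another 6 markers that the rule did not use were read beside the label: Wt1, Gpm6a, Krt19, Bnc1, Muc16 and Rspo1. They were picked from the longer lists of regulators and surface genes below, which were drawn up with earlier results of these data known. Other genes of those lists, such as Calb2, Tcf21 and Pdpn, did not rise against fibroblasts. Krt19 was not particular to members, with a UMI in 76.0% to 100% of urothelial cells and 1.36% to 74.4% of fibroblasts by library. At least 2 of the 6 had a UMI in 335 of 390 members (85.9%) and in 239 of 17429 fibroblasts (1.37%, and 0.422% to 9.30% by library). By library the members' share was 67.6%, 78.6%, 85.7%, 100% (5 cells) and 96.6% in the whole-bladder order above, 97.8% in the detrusor-only and 89.4% in the detrusor-enriched library. Median depth differed between classes and libraries (1976 to 15924 UMIs per member, 1652 to 11451 per fibroblast), so each cell was also thinned to 1000 UMIs, leaving out 10 shallower members and 998 shallower fibroblasts. The share was then 62.0% to 76.0% in 6 libraries, and 100% of the 5 cells in the second 12-month library, against 0% to 0.775% of fibroblasts and at most 0.575% of urothelial cells. Of the 31 members with none of the 6 markers, 23 were in the 22-month male library. At the edge of the rule, 35 members had 0.1% to 0.15% of UMIs from the rule genes, 11 of them with at least 2 of the 6 markers, and 46 barcodes just outside had 0.05% to 0.1%, 4 of them with at least 2. In the 22-month male library 18 members were just inside and 0 of them had 2 markers. The limit on uroplakins removed 10 barcodes.

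Several facts of the libraries touch what follows. Most members, 371 of 390, also passed the 1% fibroblast limit, and 19 did not. A doublet score marked 42 members, and 3 had over 20% mitochondrial UMIs. The score marked 13 of 111 members at 22 months (660 of all 9080 barcodes) and 8 of 28 at 3 months (325 of 6378). In the detrusor-only library it marked 12 of 137 members (328 of 6400 barcodes), and in the detrusor-enriched library 7 of 66 (304 of 6163). Members were marked more often than barcodes in general in every library but the second 12-month one, where 0 of 5 were marked. Nkain4 was broad, with a UMI in 18.6% to 67.2% of fibroblasts by library, while Upk3b was in 0.712% to 6.98%, Msln in 0% to 0.763% and Lrrn4 in 0% to 0.286%. Barcode sequences found in more than 1 cell library numbered 99, of which 64 were shared by the 22-month and 3-month male libraries, and 0 of them were members. The second 12-month library, with 5 members, was left out of fits, and the detrusor-only library had 0 urothelial cells and so gave nothing to that comparison. In the fits, UMIs were summed per library and class, and levels are given as CPM, UMIs per 1000000 of the class's summed UMIs outside mitochondrial genes.

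Each rule gene was then read in cells chosen without it, by the remaining 3 genes, which makes its level a measure that the choice did not use. Upk3b was at 2694, 2543, 1841, 2392 and 2463 CPM in the 22-month, 3-month, 24-month, detrusor-only and detrusor-enriched libraries, against 7.70, 8.45, 44.3, 25.6 and 5.20 CPM in their fibroblasts. The classes did not overlap in any of these 5 libraries (288 cells; log2 fold change 7.20, SE 0.80, adjusted p = 0.00314, edgeR quasi-likelihood test, with 24.5% of all genes called in that fit). Msln was at 603, 1472 and 4383 CPM (lowest, median, highest of 6 libraries) in 354 cells and at 0.427 to 6.30 CPM in fibroblasts (log2 fold change 9.53, SE 0.25, adjusted p = 2.79e-13, with 27.3% called). Lrrn4 was at 143, 196 and 361 CPM in 380 cells and at 0 to 0.665 CPM in fibroblasts (log2 fold change 9.39, SE 0.51, adjusted p = 2.63e-08, with 27.6% called). Nkain4 differed least of the 4, at 539, 763 and 1809 CPM in 332 cells against 39.4 to 486 CPM (log2 fold change 1.79, SE 0.32, adjusted p = 0.00341, with 30.3% called). All 4 were higher in the mesothelial cells of each library fitted.

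**Figure D2:**
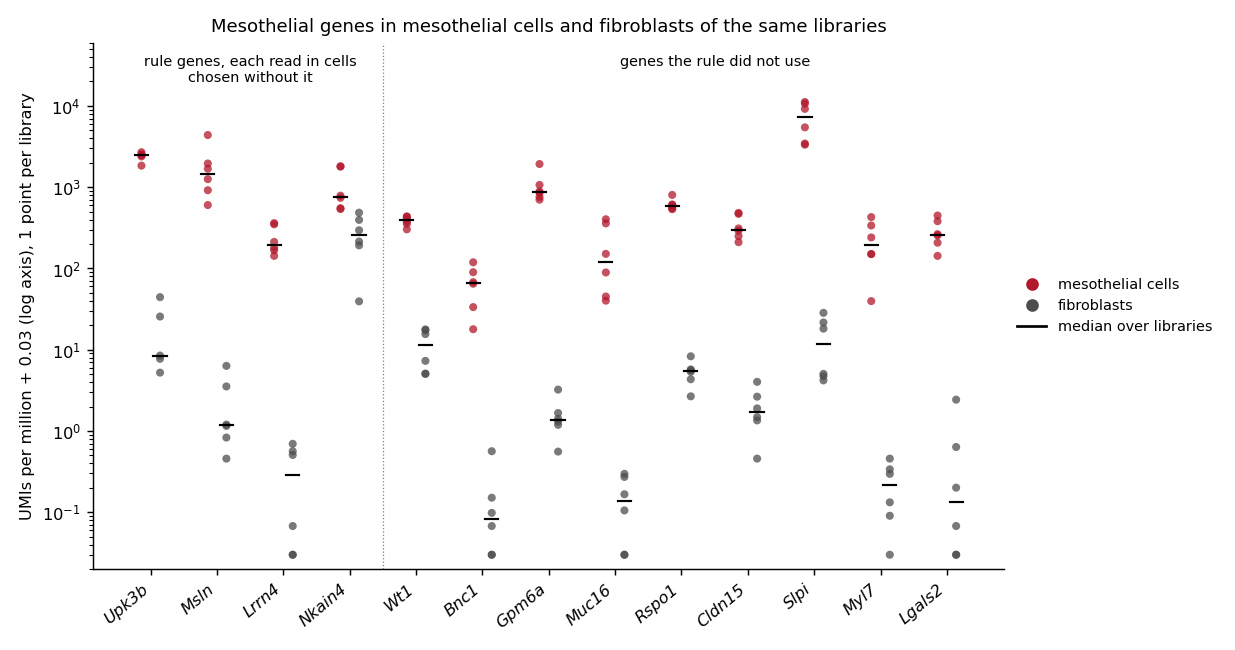
CPM on a log axis (a small constant, given on the axis, is added so that libraries at 0 can be drawn) for the rule genes, each in cells chosen without it, and for picked genes outside the rule. Each point is 1 library, red for mesothelial cells and grey for fibroblasts, with the median as a bar. The genes drawn outside the rule all rose in this comparison, and Myl7 and Lgals2 were taken from its largest rises. Their separation is thus no independent result. List genes that did not rise, such as Tcf21, Tbx20, Pdpn, Aldh1a2 and Calb2, are not drawn. The classes are apart for the genes drawn, least so for Nkain4 (log2 fold change 1.79).

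Against the fibroblasts of the same 6 libraries (385 and 17300 cells), 3138 of 11956 genes passed an adjusted p of 0.05 (26.2%), 1318 higher (11%) and 1820 lower (15.2%) in mesothelial cells. The genes with the largest rises included Myl7, the atrial myosin light chain, the chloride-bicarbonate exchanger Slc26a3, the mucin Muc16, the lectin Lgals2 and the sulfotransferase Chst4. Myl7 was at 39.6, 196 and 428 CPM (lowest, median, highest) in mesothelial cells and at 0, 0.185 and 0.427 CPM in fibroblasts (log2 fold change 10.56, SE 0.47, adjusted p = 5.76e-10). It rested on 726 UMIs against 8 over all libraries, a pooled ratio of 1983 (counting interval 1001 to 4610.3), and the groups did not overlap. Slc26a3 was at 17.8, 78.3 and 122 CPM, and 2 UMIs fell in all fibroblasts, both in the 22-month male library, against 317 in mesothelial cells (log2 fold change 10.52, SE 0.70, adjusted p = 2.17e-07). Muc16 was at 40.1, 120.2 and 403 CPM and highest in the detrusor libraries (403 and 358 CPM), with 1289 UMIs against 11 in fibroblasts (log2 fold change 10.35, SE 0.78, adjusted p = 6.19e-06). Lgals2 was at 143, 259.9 and 448 CPM against at most 2.40 CPM in fibroblasts (log2 fold change 9.49, SE 0.55, adjusted p = 2.10e-07). Chst4 was at 40.4, 56.7 and 194 CPM against at most 0.308 CPM (log2 fold change 9.34, SE 0.47, adjusted p = 8.21e-11).

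The other large rises, by the rule for named genes, were Bnc1 and Gpm6a (described with the lists below), Slpi, Tm4sf5, Krt14, Pkhd1l1 and Prr15l. Slpi, a secreted inhibitor of neutrophil proteases, was at 3332, 7325 and 11174 CPM against 4.16 to 28.4 CPM in fibroblasts (log2 fold change 9.02, SE 0.72, adjusted p = 4.00e-04). The classes did not overlap. Tm4sf5, a tetraspanin-like membrane protein, was at 17.8, 88.6 and 144 CPM (log2 fold change 8.69, SE 0.38, adjusted p = 3.06e-11). Pkhd1l1, a large receptor related to fibrocystin, was at 337 and 522 CPM in the detrusor libraries and at 35.7 to 151 CPM in the whole-bladder libraries (log2 fold change 8.22, SE 0.37, adjusted p = 3.52e-11). Krt14, a keratin of basal epithelia, was at 10.8, 59.1 and 211 CPM, highest in the 22-month male library, against at most 1.09 CPM in fibroblasts (log2 fold change 8.31, SE 0.51, adjusted p = 1.35e-08). Prr15l was at 30.1, 93.8 and 178 CPM (log2 fold change 7.88, SE 0.44, adjusted p = 1.99e-10).

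The 10 largest falls included Aldh1a3, Ccl11, Dpt and Apod. Aldh1a3, an enzyme of retinoic acid synthesis, gave 1 UMI in mesothelial cells against 5432 in fibroblasts, a pooled level 249-fold lower (counting interval 44.6 to 9821) (log2 fold change -8.31, SE 0.84, adjusted p = 3.41e-04). The eosinophil chemokine Ccl11 was at 0 CPM in 5 of 6 mesothelial libraries and at 2.98 CPM in the detrusor-only one, against 88.9, 95.6 and 189 CPM in fibroblasts (log2 fold change -6.85, SE 0.42, adjusted p = 2.19e-09). Dpt, a matrix protein, was at 0, 4.50 and 23.4 CPM against 84.4, 223 and 648 CPM (log2 fold change -5.93, SE 0.55, adjusted p = 1.07e-05). Apod, a lipocalin, was at 0 to 17.8 CPM against 62.8 to 1066 CPM (log2 fold change -6.16, SE 0.51, adjusted p = 1.54e-06). The other 6 were C1qtnf3, Dner, Gdf10, Col15a1, Cyp1b1 and Dpep1, with log2 fold changes of -6.26, -5.69, -5.45, -5.19, -4.96 and -4.91. Each of these 22 named genes had the same sign in the 6 libraries by the rule that chose it.

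Of 10 transcription factors listed as mesothelial regulators, 5 rose (Bnc1, Sox6, Wt1, Gata4, Hand2), 2 fell (Tbx20, Tcf21) and 3 did not pass the test against fibroblasts, where 11% of all genes rose and 15.2% fell. Their median log2 fold change was 0.73, against -0.13 over all genes tested. The gene lists here and below were drawn up with earlier results of these data known. Their counts describe the cells and give the label no independent support. Wt1 was at 303, 391 and 437 CPM in mesothelial cells, with little spread between libraries, and at 5.01, 11.4 and 17.7 CPM in fibroblasts (log2 fold change 5.04, SE 0.34, adjusted p = 2.38e-06). Bnc1, a zinc-finger protein of epithelia, was at 17.8, 66.2 and 119 CPM and rested on 341 UMIs against 7 in fibroblasts (log2 fold change 9.27, SE 0.56, adjusted p = 2.80e-09). Sox6 was at 0 CPM in the 3-month library, 13.4 CPM in the 22-month male library and 37.6 to 97.1 CPM in the other 4 (log2 fold change 5.29, SE 0.39, adjusted p = 3.64e-08). Gata4 had UMIs in 3 of the 6 mesothelial sums, at 7.52, 8.09 and 10.4 CPM (log2 fold change 4.22, SE 0.69, adjusted p = 2.50e-04). Hand2 was modestly higher, at 45.1 to 90.6 CPM against 18.4 to 55.2 CPM (log2 fold change 0.87, SE 0.20, adjusted p = 0.00354).

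Gata6 was at 53.5 to 261 CPM in mesothelial cells and 74.3 to 142 CPM in fibroblasts (log2 fold change 0.39, SE 0.20, adjusted p = 0.174), and the ranges overlapped. Without the 3-month library it passed (0.55, adjusted p = 0.0153). Gata5 and Tbx18 had log2 fold changes of 0.22 (adjusted p = 0.845) and 0.60 (adjusted p = 0.255). Tcf21, a factor of visceral stroma, was lower in the mesothelial cells, at 12.9, 37 and 625 CPM against 382, 735 and 1587 CPM (log2 fold change -3.88, SE 0.65, adjusted p = 0.00795). Its highest mesothelial values were in the male libraries, 625 CPM at 22 months and 232 CPM at 3 months. Those are also the shallowest libraries, with medians of 2444 and 1976 UMIs per member, and the ones with 14-base barcodes. The summed fibroblast genes of the members were also highest in the 22-month male library (8381 CPM). None of the 6 markers outside the rule had a UMI in 23 of its 111 members, and in 3 of 28 at 3 months. When Nkain4 was left out of the rule, 76 of the 111 remained. The part of depth, of barcode type or of fibroblasts among the members in this was not tested. Tbx20 was at 0 CPM in 3 mesothelial libraries and at most 3.88 CPM in the others, against 11 to 40.6 CPM (log2 fold change -3.37, SE 0.46, adjusted p = 2.28e-05).

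Of 15 surface and secreted genes known from mesothelium, 12 rose among the 14 tested, against 11% of all genes, 0 fell, and Pdpn and Aldh1a2 did not pass. This list, too, was drawn up with earlier results of these data known, so the count is no independent support for the label. The median log2 fold change was 3.73, against -0.13 over all genes. Gpm6a, a neuronal and mesothelial membrane glycoprotein, was at 702, 869 and 1928 CPM against 0.528 to 3.20 CPM in fibroblasts (log2 fold change 9.27, SE 0.42, adjusted p = 3.18e-07). Rspo1, a ligand that strengthens Wnt signals, was even over libraries, at 536, 591 and 803 CPM against 2.64 to 8.27 CPM (log2 fold change 6.69, SE 0.24, adjusted p = 3.06e-11). The growth factor Fgf9 was at 23.4 CPM in the 22-month male library and 150.4 to 259 CPM in the other 5 (log2 fold change 3.15, SE 0.33, adjusted p = 2.09e-05). Igfbp5, which binds insulin-like growth factors, was at 565, 999.6 and 1668 CPM against 30.1 to 144 CPM (log2 fold change 3.62, SE 0.39, adjusted p = 3.87e-04). Efemp1, an extracellular matrix protein, rose by 1.49 on the log2 scale (SE 0.16, adjusted p = 4.40e-06), and Sulf1, Dmkn and Upk1b by 1.43, 2.19 and 4.89. Upk1b missed the threshold without the detrusor-enriched library (adjusted p = 0.0512), and Dmkn without the 22-month male, the 3-month, the detrusor-only or the detrusor-enriched library (adjusted p = 0.077 to 0.125).

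Some classic markers behaved otherwise. Calb2 (calretinin), a diagnostic marker of mesothelium, had 0 UMIs among 3887524 mesothelial UMIs, where 3 counts would be 0.772 CPM, and 86 UMIs in fibroblasts. Podoplanin (Pdpn), a membrane mucin, was at 35.7, 154 and 238 CPM in mesothelial cells and 152, 177 and 279 CPM in fibroblasts, overlapping ranges (log2 fold change -0.57, SE 0.24, adjusted p = 0.0933). Without the detrusor-enriched library Pdpn was lower past the test (-0.76, adjusted p = 0.0353). Aldh1a2, the retinaldehyde dehydrogenase of embryonic mesothelium, was at 35.7, 115 and 181 CPM against 1.30, 109 and 154 CPM (log2 fold change 0.47, SE 1.16, adjusted p = 0.827). Its fibroblast level was 1.30 CPM in the detrusor-only library and 72.6 to 154 CPM in the other 5, while the mesothelial level in the detrusor-only library was 152 CPM.

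The mesothelial cells held transcripts of the simple epithelial keratins Krt7, Krt8, Krt18 and Krt19, the filament proteins of single-layered epithelia. Krt19 was at 892, 1692 and 2272 CPM and higher than in fibroblasts (log2 fold change 3.84, SE 0.75, adjusted p = 0.0156), and it was the member of the 4 that passed the edgeR test. Krt7 was at 527, 936 and 1129.9 CPM, Krt8 at 244, 384 and 549 CPM and Krt18 at 363, 526 and 803 CPM. In fibroblasts, Krt7 was at 0.273 CPM in the detrusor-only library and 56.7 to 219.5 CPM in the other 5, Krt8 at 0.307 CPM and 19.2 to 173 CPM, and Krt18 at 0.307 CPM and 82.5 to 269 CPM. The mesothelial and fibroblast ranges did not overlap for any of the 4 keratins, and the share of all genes with ranges apart was not computed. Their log2 fold changes were 3.23 (adjusted p = 0.123), 3.32 (adjusted p = 0.102) and 2.45 (adjusted p = 0.193), with SEs of 1.21, 1.16 and 1.12. In DESeq2 these 3 passed (adjusted p = 0.0023 for Krt7, 8.27e-04 for Krt8 and 0.0225 for Krt18), where 1367 of 11956 genes were called higher. Without the detrusor-only library all 4 keratins passed in edgeR: the log2 fold changes were then 2.61 for Krt7 (adjusted p = 0.0157), 2.64 for Krt8 (adjusted p = 0.0468) and 1.84 for Krt18 (adjusted p = 4.98e-06), while Krt19 missed the threshold without the detrusor-enriched library (adjusted p = 0.0519). In the fit without the detrusor-only library 2451 of 11307 genes were called, 1025 of them higher. The detrusor-only library also had 0 urothelial barcodes, and the part of urothelial RNA in the fibroblast levels of the other libraries was not tested.

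**Figure D3:**
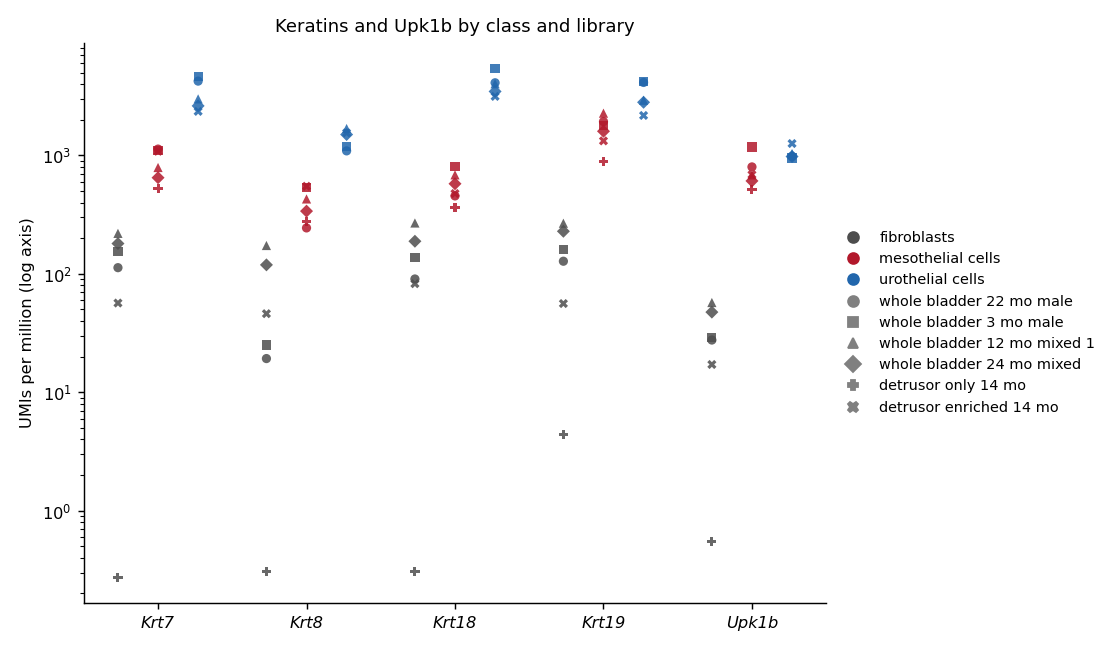
CPM on a log axis of the 4 simple epithelial keratins and Upk1b in fibroblasts (grey), mesothelial cells (red) and urothelial cells (blue), with a marker shape for each library. Mesothelial cells lie between the other classes for the 4 keratins, and the detrusor-only fibroblasts sit lowest, at 0.273 to 4.40 CPM for the keratins.

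Junction and polarity genes gave 9 rises and 1 fall among 18 tested, with a median log2 fold change of 1.57, where over all genes 11% rose, 15.2% fell and the median was -0.13. The rises included Cldn15, Cldn10 and Cldn3 (claudins, the strand proteins of tight junctions), Cdh3 (P-cadherin), the polarity proteins Crb2 and Pard6b, and Cgn and Jup. Cldn15, which forms a cation-selective pore, was at 211, 301 and 483 CPM against 0.427 to 3.99 CPM in fibroblasts (log2 fold change 7.25, SE 0.33, adjusted p = 3.54e-09). Cdh3 was at 17.8, 44.2 and 104 CPM against at most 1.23 CPM (log2 fold change 6.53, SE 0.46, adjusted p = 8.86e-09). Crb2 was at 0, 24.5 and 45.3 CPM, with 0 in the 3-month library (log2 fold change 7.10, SE 0.49, adjusted p = 1.18e-08). Cldn10 was at 128, 351 and 571 CPM (log2 fold change 4.02, SE 0.28, adjusted p = 4.96e-07). Cldn1 fell, at 0 CPM in 4 mesothelial libraries and at most 3.34 CPM, against 10.4 to 25.3 CPM in fibroblasts (log2 fold change -4.05, SE 0.60, adjusted p = 5.58e-05). Cdh1 (E-cadherin) and Cdh2 (N-cadherin) did not pass, with log2 fold changes of 0.65 (adjusted p = 0.432) and -0.91 (adjusted p = 0.338).

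Among 9 tested genes of microvilli and of the ezrin, radixin and moesin (ERM) linkers that tie membrane to actin, 4 rose and 2 fell, against 11% and 15.2% of all genes. Podxl, a charged surface sialomucin, was at 45.1, 104 and 195 CPM against 0.887 to 2.90 CPM in fibroblasts (log2 fold change 5.86, SE 0.27, adjusted p = 1.19e-10). The ezrin partner Slc9a3r1 was at 435, 498 and 589 CPM against 5.94 to 28.7 CPM (log2 fold change 4.74, SE 0.25, adjusted p = 3.80e-09). Ezr was at 284, 392 and 937 CPM against 29.1 to 80.9 CPM (log2 fold change 3.11, SE 0.20, adjusted p = 1.02e-08), and Espn, an actin bundler, had a log2 fold change of 3.10 (adjusted p = 1.54e-06). Radixin (Rdx) and Podn fell, by log2 fold changes of -0.53 and -0.56. Podn, a secreted proteoglycan, is not a microvillus component, and both falls missed the threshold under RLE scaling (adjusted p = 0.0549 for Rdx and 0.0593 for Podn), under DESeq2 and without most single libraries. The median over the 9 was 0.69.

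Transport genes rose in 7 of 10 tested, and 0 fell (median log2 fold change 2.40), where 11% of all genes rose. They included the sodium pump subunit Atp1b1, the epithelial sodium channel subunit Scnn1a, the chloride channel Cftr, the bicarbonate transporter Slc4a4, carbonic anhydrase Car2 and the water channel Aqp1. Atp1b1 was at 169, 269 and 321 CPM against 4.22 to 12 CPM in fibroblasts (log2 fold change 4.81, SE 0.34, adjusted p = 2.06e-06). Slc4a4 was at 181 and 202 CPM in the detrusor libraries and 16.7 to 60.2 CPM in the whole-bladder libraries (log2 fold change 2.26, SE 0.37, adjusted p = 6.07e-04). Aqp1 was at 17.8, 132 and 346 CPM against 3.42 to 18.3 CPM (log2 fold change 3.39, SE 0.72, adjusted p = 0.0176). Cftr was sparse, at 0 CPM in 3 mesothelial libraries and at most 15.5 CPM (log2 fold change 5.79, SE 0.77, adjusted p = 1.62e-05), and Scnn1a was at 0, 13.3 and 43.2 CPM (log2 fold change 4.23, SE 0.47, adjusted p = 3.63e-06).

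Complement and defence genes were higher in 11 of 16 tested and lower in 2, against 11% and 15.2% of all genes, and the median log2 fold change was 2.19. C3, the central complement protein, was at 2397, 3375 and 5003 CPM in mesothelial cells against 122 to 480.3 CPM in fibroblasts (log2 fold change 3.82, SE 0.20, adjusted p = 3.35e-09). C2, a protease of the classical pathway, was at 722, 816 and 1178 CPM against 36.1 to 270.4 CPM (log2 fold change 2.59, SE 0.29, adjusted p = 1.22e-04). Cfb, of the alternative pathway, was highest in the male libraries, 308 and 839 CPM, and at 73.7 to 158 CPM in the other 4 (log2 fold change 2.55, SE 0.22, adjusted p = 3.43e-07). The regulators Clu and Cd59a rose too, with log2 fold changes of 5.02 and 1.83. Lcn2, which binds iron-carrying siderophores, the joint lubricant Prg4 and the cytokine Il18 rose by 5.52, 2.58 and 3.09. The falls were in Cd55 (decay-accelerating factor, log2 fold change -0.88, adjusted p = 0.0184) and ceruloplasmin, Cp (-2.37, adjusted p = 7.49e-04), and the fall of Cd55 missed the threshold without the first 12-month (adjusted p = 0.056) or the detrusor-enriched library (adjusted p = 0.0641), under RLE scaling (adjusted p = 0.0648) and under DESeq2.

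Signalling ligands and binding proteins split, with 8 higher and 7 lower among 24 tested, against 11% higher and 15.2% lower over all genes, and a median log2 fold change of 0.26. The rises included Rspo1 and Fgf9, described above, and 3 other fibroblast growth factors. Fgf1 was at 107, 369 and 577 CPM against 1.08 to 7.61 CPM in fibroblasts (log2 fold change 6.18, SE 0.20, adjusted p = 7.25e-12), and Fgf18 and Fgf2 had log2 fold changes of 3.51 and 0.86. Wnt5a (1.42), Igfbp2 (1.27) and Tgfb3 (0.59) also rose on the log2 scale. Fgf2 and Tgfb3 missed the threshold without any of the first 12-month, 24-month, detrusor-only or detrusor-enriched libraries (highest adjusted p = 0.263 and 0.135, both without the detrusor-enriched one), and Igfbp2 without the 24-month library (adjusted p = 0.0557). Bmp4, Bmp3, Vegfa, Vegfc, Tgfb1, Dkk3 and Sfrp1 fell, Bmp4 from 311, 358 and 515 CPM in fibroblasts to 150.4, 212 and 308 CPM (log2 fold change -1.03, SE 0.16, adjusted p = 1.12e-04). Retinoid genes gave 2 rises and 6 falls among 12 tested (median -0.84). The retinaldehyde dehydrogenase Aldh1a1 was at 150.4, 199 and 553 CPM against 35.4 to 100.4 CPM (log2 fold change 1.63, SE 0.20, adjusted p = 1.09e-05), while Aldh1a3 fell as above. Rarres2 (chemerin) was at 2715, 3228 and 4279 CPM against 648 to 1595 CPM (log2 fold change 1.40, SE 0.19, adjusted p = 6.18e-05).

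Basement membrane genes gave 4 rises and 9 falls among 17 tested (median log2 fold change -0.73), beside 11% and 15.2% over all genes. The chains that rose were Col4a3 and Col4a4, the type IV collagen chains of kidney and lung basement membranes, with Nid2 and the epithelial laminin chain Lama5. Col4a4 was at 89.4 and 138 CPM in the detrusor libraries and 15 to 26.7 CPM in the whole-bladder libraries (log2 fold change 3.38, SE 0.31, adjusted p = 4.85e-07). Col4a3 rose by 3.33, Nid2 by 2.93 and Lama5 by 2.46 on the log2 scale. Col4a1, the ubiquitous chain, fell (log2 fold change -1.90, SE 0.32, adjusted p = 9.86e-04), as did Col4a2, Col4a5, Col15a1, Lama4, Lamb1, Lamc1, Nid1 and Hspg2. Fibrinolysis and coagulation genes gave 2 rises and 6 falls among 12 tested (median -0.78), where 11% of all genes rose and 15.2% fell. The urokinase receptor Plaur rose (log2 fold change 1.01, SE 0.22, adjusted p = 0.00276) with S100a10, while the falls included Plau, the inhibitor Serpine2, tissue factor (F3, with a log2 fold change of -1.40), Tfpi and Tfpi2. The activator Plat did not pass (log2 fold change -0.72, SE 0.27, adjusted p = 0.0671), but fell past the test without the detrusor-enriched library (adjusted p = 0.0261).

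Mesenchymal transition genes gave 1 rise and 7 falls among 13 tested (median log2 fold change -1.24), beside 11% and 15.2% over all genes. Cdh11, a mesenchymal cadherin, rose (log2 fold change 1.46, SE 0.25, adjusted p = 7.81e-04). Vimentin (Vim) did not differ past the test, at 1714, 2307 and 3018 CPM against 929, 1617 and 2993 CPM (log2 fold change 0.15, SE 0.13, adjusted p = 0.459). Zeb1, Zeb2, Snai1, Snai2, Twist2, Sparc and Fn1 fell, Zeb2 with a log2 fold change of -2.38. Fibronectin (Fn1) was at 334 CPM in the 22-month male members and 28.5 to 60.2 CPM in the others, against 183 to 643 CPM in fibroblasts (log2 fold change -2.97, SE 0.56, adjusted p = 0.0101). Of 15 further fibroblast genes, 14 fell and 0 rose (median -3.14). Fibroblasts had been chosen on collagens and Dcn, so this direction is not independent of the choice. Those choosing genes (Dcn, Col1a1 and Col3a1 together) were not lower throughout: the median share per cell was 3.67% in members against 4.37% in fibroblasts at 22 months, 4.65% against 3.32% at 3 months, 3.18% against 2.10% and 1.96% against 1.88% in the 12-month libraries, and 2.55% against 1.79% at 24 months. It was 2.24% against 2.75% in the detrusor-only and 1.60% against 2.33% in the detrusor-enriched library. Pi16 was at 1026 CPM in the 22-month male members, 176 to 286 CPM in the other whole-bladder libraries, and 43.4 and 6.47 CPM in the detrusor libraries (log2 fold change -3.97, SE 0.85, adjusted p = 0.0217). Pi16 missed the threshold without the first 12-month, the 24-month or the detrusor-only library (adjusted p = 0.0525 to 0.059), and Fn1 without the detrusor-only library (adjusted p = 0.0596). In the 22-month male library 23 of 111 members had none of the 6 markers outside the rule. The part of fibroblasts among those members in their Fn1 and Pi16 levels was not tested. Early-response and stress genes of dissociation gave 16 falls and 0 rises among 27 tested (median -1.11), such as Hspa1a (-1.95) and Il6 (-3.69). Fos was at 606 CPM in the detrusor-enriched members and 2708 to 6328 CPM in the others (log2 fold change -1.01, SE 0.39, adjusted p = 0.116), and without the detrusor-enriched library it was lower past the test (-0.64, adjusted p = 0.0055). These falls are against fibroblasts. In the 5 libraries with urothelial cells, the dissociation list summed to a median of 17921 CPM in members and 7690 CPM in urothelial cells. The ranges overlapped (6742 to 28146 and 6195 to 16394 CPM).

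Markers of other cells the members could hold were summed over each list, and the calls below are to be read against 11% higher and 15.2% lower over all genes. Macrophage markers came to 22.6 to 1474 CPM in mesothelial cells against 50.3 to 616 CPM in fibroblasts, highest in the 22-month male library, and 1 of 7 rose (Csf1r). Smooth muscle markers came to 557 to 2781 against 443 to 2568 CPM, and 1 of 8 fell (Actg2). Blood endothelial markers came to 50.1 to 196 against 8.80 to 60.1 CPM, and 1 of 6 rose: Kdr, a receptor for VEGF, at 13.4, 58.9 and 102 CPM (log2 fold change 3.22, SE 0.45, adjusted p = 1.32e-04). Lymphatic markers came to 0 to 114 against 4.54 to 59.4 CPM with 0 of 3 tested called, Schwann cell markers to 13.4 to 57.5 against 2.13 to 16.5 CPM with 1 of 2 (Kcna1), and basal urothelial markers to 33.2 to 725 against 0.0683 to 438 CPM with 1 of 4 (Krt14). Other urothelial markers came to 260.1 to 1731 against 25.3 to 1129.6 CPM, with 0 of 7 called. T cell markers came to 0 to 16.7 CPM (8 UMIs) in members against 1.19 to 15.7 CPM in fibroblasts. B and plasma cell markers came to 0 to 97.8 CPM (46 UMIs) against 1.24 to 80.3 CPM. Of these lists Cd3e and Ms4a1 were at 0 UMIs in the members. The adipocyte genes Adipoq, Cidec, Lep and Pck1 were at 0 as well, and of 5 tested cell cycle genes 1 fell (Ccnb2). The part of other cells' RNA in the mesothelial differences was not tested.

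Svs5, a secretory gene of the seminal vesicle list, was higher in the mesothelial cells on few UMIs, at 26.7, 0, 0, 3.60, 9.79 and 16.8 CPM in the 22-month, 3-month, first 12-month, 24-month, detrusor-only and detrusor-enriched libraries, against at most 0.0341 CPM in fibroblasts (log2 fold change 8.68, SE 0.78, adjusted p = 8.02e-07). The detrusor-only library is labelled with 3 females. Svs6, of the same list, had 3 UMIs in the 22-month members (10.03 CPM) and 5 in the detrusor-only members (2.13 CPM), and 1 in all fibroblasts. Svs1, Svs2, Svs3a, Svs4, Pbsn and Pate4 had 0 UMIs in the members.

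**Figure D4:**
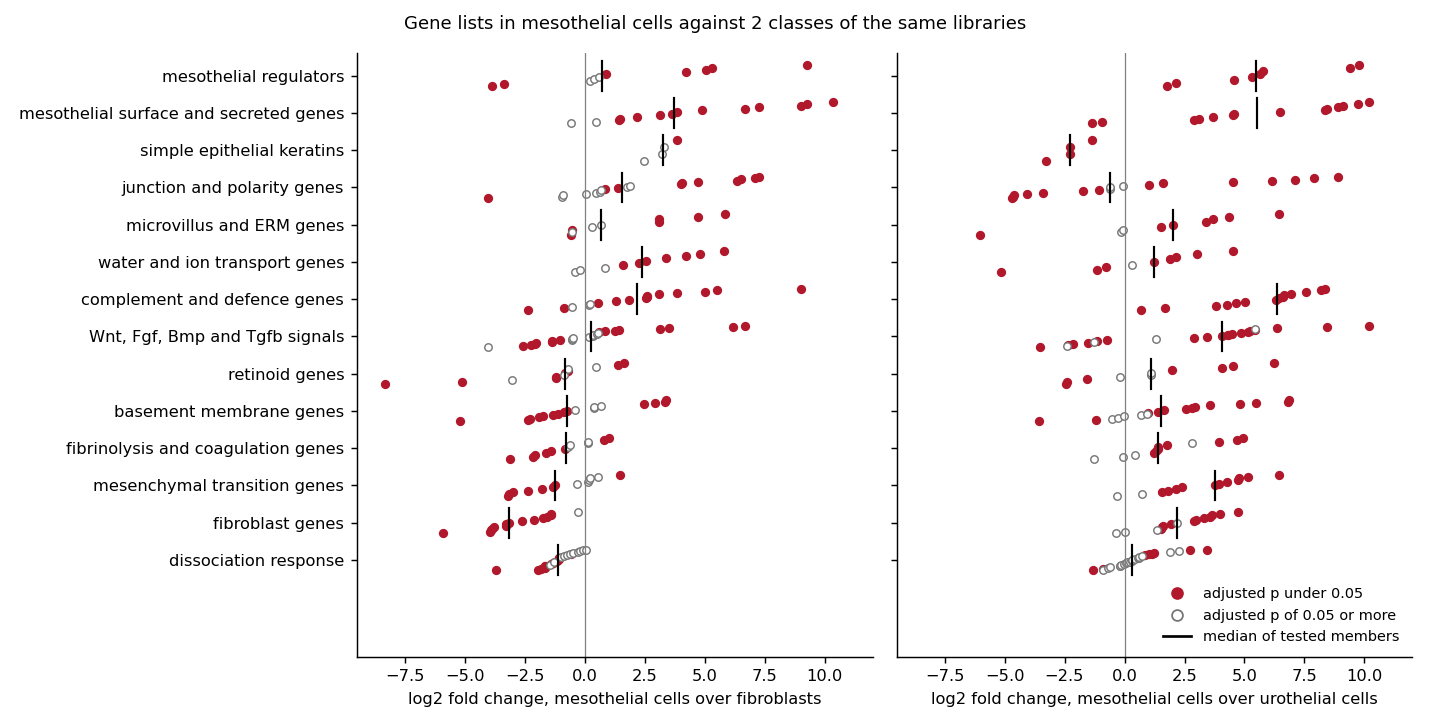
The log2 fold change of every tested gene of 14 lists, mesothelial cells over fibroblasts (left) and over urothelial cells (right), filled where the adjusted p was under 0.05, with each list's median as a bar. The medians of surface and complement genes lie right of 0 in both panels ( 3.73 and 2.19 at left), while the 4 keratins lie right of 0 against fibroblasts and left of 0 against urothelial cells.

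Against urothelial cells, the other epithelium of the bladder, 4879 of 11299 genes passed (43.2%), 2343 higher (20.7%) and 2536 lower (22.4%) in mesothelial cells, over 5 libraries with 248 and 3155 cells. In the order 22-month, 3-month, first 12-month, 24-month and detrusor-enriched, Rspo1 was at 578, 803, 549, 536 and 612 CPM in mesothelial cells and 0.624, 0.347, 0.141, 0.131 and 0.908 CPM in urothelial cells (log2 fold change 10.19, SE 0.32, adjusted p = 6.63e-17). Ptger3, a prostaglandin E receptor, was at 181, 249.9, 158, 234 and 124 CPM, resting on 250 UMIs against 3 (log2 fold change 9.91, SE 0.43, adjusted p = 1.14e-14). The groups did not overlap for either gene. Wt1 (9.78), Gpm6a (9.72), Lgals2 (9.60), Slc26a3 (9.56), Crym (9.47), Bst1 (9.46), Bnc1 (9.39), Nxph1 (9.16), Muc16 (9.13) and Cldn15 (8.89) made up the other named rises, as log2 fold changes. Slc26a3, Bst1 and Bnc1 had 1 urothelial UMI each, so their fitted values depend on a prior count.

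The largest falls against urothelium were Ildr1 (-6.97), the tight-junction claudin Cldn8 (-6.69), Tmem40 (-6.52), the gap-junction protein Gjb6 (-6.22), Sytl2 (-6.15), Slc25a48 (-6.05), Pdzk1ip1 (-6.01), Oit1 (-5.87), Prom2 (-5.78) and Pllp (-5.75), again as log2 fold changes. Ildr1, Cldn8 and Tmem40 had 1 UMI each in the mesothelial cells. Prom2, a protein of membrane protrusions, was at 3.34, 0, 0, 10.8 and 3.88 CPM in mesothelial cells and 128, 129, 125, 150.2 and 274 CPM in urothelial cells (log2 fold change -5.78, SE 0.40, adjusted p = 2.91e-11). All 9 other urothelial markers tested were lower, against 22.4% of all genes, with a median log2 fold change of -4.87. Urothelial cells were chosen on uroplakins and members under a uroplakin limit, so this direction is not independent of the choice either.

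The gene lists were counted against urothelium too, where over all genes 20.7% were higher and 22.4% lower. All 8 tested regulators and all 14 tested complement and defence genes were higher, with medians of 5.47 and 6.37 against -0.11 over all genes. C3 was at 2397, 2713, 2768, 3981 and 4715 CPM in mesothelial cells and 23.1, 6.59, 4.23, 7.61 and 5.14 CPM in urothelial cells (log2 fold change 8.19, SE 0.52, adjusted p = 7.54e-06). The 4 keratins were lower, from Krt19 (-1.34) through Krt7 (-2.29) and Krt8 (-2.29) to Krt18 (-3.25). The tetraspanin uroplakin Upk1b came close to urothelium, at 799, 1178, 684, 608 and 687 CPM against 982, 948, 1036, 978 and 1259 CPM, and was lower (log2 fold change -0.93, SE 0.18, adjusted p = 2.35e-04). In fibroblasts of these libraries it was at 17.2 to 57.2 CPM. Junction genes split, with 7 higher (Cldn15, Cldn10, Cldn3, Crb2, Cdh3, Pard6b, Pkp2) and 7 lower (among them Cldn4, Dsp, Ocln, Jup, Cdh1 and Cldn1) of 17 tested, both shares above the 20.7% and 22.4% of all genes. E-cadherin (Cdh1) was at 6.69, 0, 37.6, 25.2 and 0 CPM against 106, 101, 156, 165 and 338 CPM (log2 fold change -4.63, SE 0.69, adjusted p = 3.18e-04). Of 13 mesenchymal transition genes 11 were higher and 0 lower, among them Vim (5.17), and of 18 basement membrane genes 11 were higher and 2 (Lama3, Lama5) lower. Transport genes gave 5 higher and 3 lower of 9, Aqp3, a water and glycerol channel, among the lower ones, beside the same 20.7% and 22.4%. Genes of other cells moved with these lists: 11 of 15 fibroblast genes were higher (median 2.21), with sums of 1543 to 8381 CPM in members and 119 to 1430.3 CPM in urothelial cells. Of 8 smooth muscle markers 6 were higher (median 1.93), with sums of 557 to 2781 against 19.1 to 343 CPM, and Acta2 and Tagln are on the mesenchymal list as well. Their part in the differences was not tested.

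Whether the mesothelial difference from fibroblasts itself differed between detrusor and whole-bladder preparations was tested as an interaction over the 6 libraries. It passed for 16 of 11956 genes (0.134%), 6 higher (0.0502%) and 10 lower (0.0836%) in the detrusor libraries, and 6.99% had an unadjusted p under 0.05. Bdnf, a neurotrophin, was at 0, 0, 15 and 14.4 CPM in the whole-bladder members (22, 3, 12 and 24 months) and 74.9 and 114 CPM in the detrusor members (only, enriched), with fibroblasts at 8.17, 11.2, 69.6 and 35.5 and 4.88 and 22.7 CPM (difference of log2 fold changes 5.06, SE 0.66, adjusted p = 0.00383). Smpd3, a neutral sphingomyelinase, was at 30.1, 17.8, 67.7 and 61.2 CPM in the whole-bladder members (22, 3, 12 and 24 months) and 155 and 289 CPM in the detrusor members (only, enriched), with fibroblasts at 1.76, 1.54, 5.12 and 5.07 and 2.18 and 1.39 CPM (difference 3.11, SE 0.53, adjusted p = 0.0224). Both were higher in both detrusor members than in any whole-bladder members. Spint2, a protease inhibitor of epithelia, was at 351, 499.8, 594 and 644 CPM in the whole-bladder members (22, 3, 12 and 24 months) and 107 and 190.2 CPM in the detrusor members (only, enriched), with fibroblasts at 90.1, 110.4, 186 and 152 and 3.75 and 18.2 CPM (difference 2.18). Its members were lower in the detrusor libraries, and the fibroblasts lower still. Cgn, Fxyd3 and Ano1 had differences of 3.33, 2.87 and 2.65. They lost the call under 7, 7 and 9 of 14 alternatives, Spint2 under 8, Smpd3 under 5 and Bdnf under 3. Muc16, Pkhd1l1, Slc4a4 and Col4a4, whose levels were set out by preparation above, were not among the genes called higher in the detrusor libraries.

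On the list of 15 fibroblast genes, 2 were lower in the detrusor libraries (Lum, Pi16), against 0.0836% of all genes, and 13 were not called. Pi16, a marker of universal fibroblasts, had a difference of -3.53 (SE 0.54, adjusted p = 0.0492), with the levels given above, and lost its call under 7 of 14 alternatives, among them RLE scaling (adjusted p = 0.154), no filter on low counts (0.286) and the stricter rule (0.898). Scara5, a ferritin receptor, was at 80.2, 35.7, 75.2 and 50.4 CPM in the whole-bladder members (22, 3, 12 and 24 months) and 10.6 and 5.18 CPM in the detrusor members (only, enriched), with fibroblasts at 229, 126, 332 and 319.9 and 331 and 261 CPM (difference -3.14, adjusted p = 0.00462). Islr (-3.59), Adh1 (-3.11), Krtdap (-3.59) and the lipid flippase Atp8b1 (-4.95) were the other lower genes that the rule for named genes chose. They lost the call under 5, 7, 6 and 5 of 14 alternatives, and Scara5 under 3. The summed fibroblast genes came to 1543 to 8381 CPM in the members, and their part in these differences was not tested. The count rested on few libraries: it was 0 without the 3-month or the first 12-month library, 9 without the 24-month library, 10 without the 22-month male library and 184 without the detrusor-enriched library. With the stricter rule (at least 5 UMIs from at least 3 genes and 0.3% of UMIs) 1 gene passed.

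Age was compared over whole-bladder libraries, the 22-month and 24-month ones against the 3-month and first 12-month ones. The mesothelial difference passed for 0 of 10077 genes in edgeR, where 365 (3.62%) had an unadjusted p under 0.05. DESeq2 called 0 as well, and 121 genes were under 0.05 before adjustment. In simulated counts of this design 0% of 200 genes changed by a log2 value of 2 were recovered, so a change of that size was not detectable with these libraries.

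Frozen sections gave an assay without dissociation, in which a spot covers several cells. Taken as designed, spots with UMIs of at least 2 rule genes numbered 651, 548, 345 and 392 in the 4 sections, and 6828 of 13649 genes (50%) separated them from spots with none, 3457 higher (25.3%) and 3371 lower (24.7%). In these spots the uroplakins made up 0.446% to 0.641% of their UMIs against 0.177% to 0.266%, and all 9 urothelial markers were higher. Upk3b is a urothelial transcript too, so the full rule for cells was applied to spots, a choice made after seeing the data. It kept 46 and 11 spots at 22 months and 17 and 42 at 14 months, with uroplakins at 0.110% to 0.153% of UMIs against 0.148% to 0.191% in the other spots under the limit. Between these, 813 of 12576 genes passed (6.46%), 470 higher (3.74%) and 343 lower (2.73%). The count fell to 328 without the first 22-month section, 454 without the first 14-month and 434 without the second 14-month section.

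Mesothelial genes outside the rule were higher in those spots. In the order first and second 22-month, first and second 14-month section, Wt1 was at 195, 60.4, 163 and 96.5 CPM against 5.49, 2.69, 6.37 and 3.86 CPM (log2 fold change 4.72, SE 0.22, adjusted p = 9.65e-13). Gpm6a was at 253, 242, 361 and 371 CPM against 17.8, 18, 25.8 and 19.8 CPM (log2 fold change 3.86, SE 0.15, adjusted p = 1.19e-13). Muc16 was at 58.5, 49.4, 58.3 and 68 CPM against 5.82, 2.47, 3.02 and 2.19 CPM (log2 fold change 4.08, SE 0.32, adjusted p = 1.17e-08). The spots of each section were higher than the rest for all 3. The largest rises were Col6a5 (4.82), Wt1, Pkhd1l1 (4.60), Bnc1 (4.51), Tnfrsf11b (4.46) and Lgals7 (4.42). The largest falls were the immunoglobulin genes Iglc3, Iglc1, Ighg1 and Ighg2b with the plasma cell genes Jchain and Mzb1, from -4.76 to -2.47 in log2 fold change for Iglc3 and Ighg2b. In the second 22-month section the summed B and plasma cell markers of the other spots were at 457 CPM, against 4.19 to 17.3 CPM in the other 3 sections. Without that section Ighg1 and Jchain lost the call (adjusted p = 0.503 and 0.17), and Iglc3, Iglc1, Ighg2b and Mzb1 gave no value.

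Of all genes in that fit 3.74% rose and 2.73% fell. By list, 12 of 14 surface genes rose in the spots and 0 fell (median 2.38, against -0.04 over all genes), and 12 of 15 complement and defence genes rose and 0 fell (median 1.65). C3 stood at 3.09 on the log2 scale (SE 0.13, adjusted p = 2.81e-13). Pdpn and Aldh1a2, which did not pass in cells, were higher in the spots (1.07 and 1.74). Among regulators, Wt1, Bnc1 and Gata6 rose and Tcf21 fell of 10 tested. Krt7 and Krt18 fell (-0.37 and -0.39), but neither passed without the first 22-month or either 14-month section, and Krt8 and Krt19 did not pass. Aldh1a2 missed the threshold without the second 14-month section (adjusted p = 0.111). Fibroblast genes were balanced, with 1 rise and 1 fall of 15, and smooth muscle markers fell in 6 of 8. Lymphatic markers moved with the spots: 4 of 5 rose (Ccl21a, Mmrn1, Flt4, Lyve1), and their sum was 1195 to 1395 CPM against 339 to 426 CPM. Their part in the other rises was not tested.

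Bulk RNA compared dissociated with intact bladder, 3 libraries each, and 9859 of 16538 genes differed (59.6%), 28.0% higher and 31.6% lower after dissociation. Of 27 tested rule genes, regulators and surface genes 13 passed (7 higher, 6 lower), a share below that over all genes. Other lists moved with the same contrast: all 8 smooth muscle markers and all 5 adipocyte markers were lower (medians -3.96 and -4.92), while 12 of 15 fibroblast genes and all 27 tested genes of the dissociation response were higher (medians 1.12 and 4.22). Their part in the values below was not tested. In bulk, fewer cells of a type and less RNA per cell cannot be told apart. Upk3b was at 292, 265 and 322 CPM in intact and 162, 164 and 138 CPM in dissociated libraries 1 to 3 (log2 fold change -0.82, SE 0.10, adjusted p = 3.65e-04). Msln was at 48.7, 38.6 and 30.001 CPM in intact and 45, 39.5 and 14 CPM in dissociated libraries 1 to 3, and the groups overlapped (log2 fold change -0.14, SE 0.41, adjusted p = 0.776). Lrrn4 was at 12.8, 13.2 and 28 CPM in intact and 20.2, 25.8 and 9.01 CPM in dissociated libraries 1 to 3, also overlapping (log2 fold change 0.15, SE 0.44, adjusted p = 0.785). Nkain4 was at 16.6, 14.4 and 18.6 CPM in intact and 36.4, 25 and 26.5 CPM in dissociated libraries 1 to 3, with no overlap (log2 fold change 0.95, SE 0.17, adjusted p = 0.00199). Upk1b, which urothelium also makes, was at 1153, 1040.1 and 1088 CPM in intact and 415, 345 and 478 CPM in dissociated libraries 1 to 3 (log2 fold change -1.29, SE 0.14, adjusted p = 1.68e-04). The regulators Gata4, Gata5, Hand2 and Tbx20 were lower (-2.69, -1.20, -1.36 and -0.49) and Tcf21 higher (0.83).

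Several genes with large mesothelial rises in the cell libraries did not pass in bulk. Gpm6a was at 24.3, 28.8 and 29.2 CPM in intact and 33.1, 37.9 and 20.01 CPM in dissociated libraries 1 to 3 (log2 fold change 0.25, SE 0.21, adjusted p = 0.322). Bnc1 was at 7.28, 8.19 and 10.8 CPM in intact and 9.07, 11.5 and 3.43 CPM in dissociated libraries 1 to 3 (log2 fold change -0.01, SE 0.37, adjusted p = 0.986), and Wt1 at 9.66, 7.49 and 21.3 CPM in intact and 23, 34.4 and 12.8 CPM in dissociated libraries 1 to 3 (log2 fold change 1.00, SE 0.48, adjusted p = 0.115). The third dissociated library was the lowest of the 6 for 12 of the 27 genes, including Msln, Lrrn4, Bnc1, Gpm6a, Rspo1, Cldn15 and Slpi, a feature singled out after the values were seen. The share of all genes for which that library was lowest was not counted, so the 12 are not shown to be particular to these genes. Without that library 15 of the 27 passed (9 higher, 6 lower), beside 9790 of 16871 over all genes. Over all 6 libraries, those higher after dissociation included Pdpn (1.80), Efemp1 (1.46), Dmkn (1.44) and Sulf1 (0.87). Krt19 had 0.55 and missed the threshold without the second intact, the third intact or the third dissociated library. Gpm6a passed without the third dissociated library (0.47, adjusted p = 0.00823) and Wt1 without the third intact library (1.56, adjusted p = 0.0231).

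**Figure D5:**
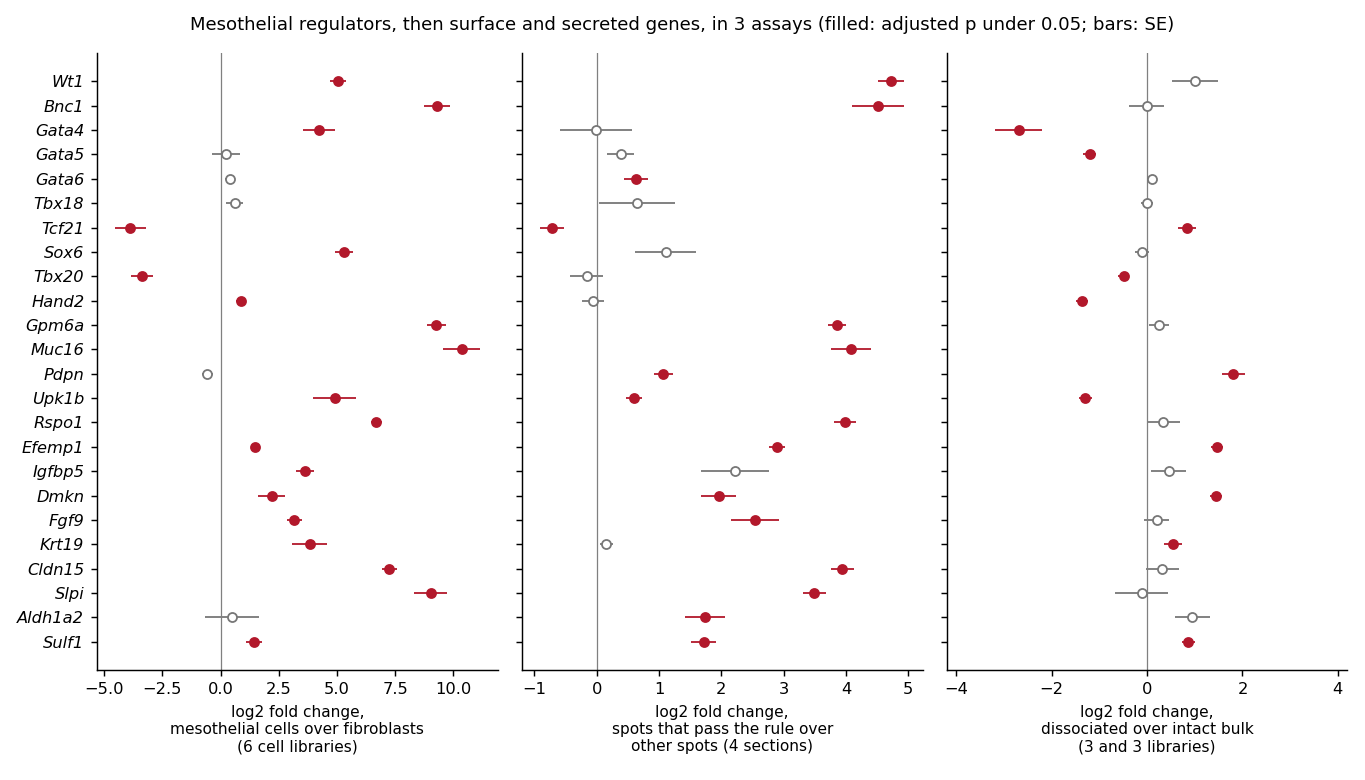
The log2 fold change (with SE bars) of mesothelial regulators and of surface and secreted genes in 3 assays: mesothelial cells over fibroblasts, spots passing the rule over other spots, and dissociated over intact bulk. Filled points passed an adjusted p of 0.05; the surface genes, other than Pdpn in cells, sit right of 0 in cells and spots, with 12 of 14 called in each, and on both sides of 0 in bulk.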

How the data were processed

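The authors deposited UMI counts per gene and barcode or spot for the cell, nucleus and section libraries, and read counts per gene for 6 bulk libraries, as whole numbers without normalization. The submitters' processing notes name bcl2fastq, Cell Ranger, Space Ranger, Subread, featureCounts and the mm10 build, without versions or settings. Cells and nuclei were made with the standard 10x Genomics droplet kit, and bulk RNA with a poly-A selected library, per the labels' protocols. The cell libraries held 13281422 to 55374101 UMIs, the nuclei 5197910, the sections 21976101 to 32021223, and the bulk libraries 23083752 to 68760791 counted reads.

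The members and the gene lists were chosen with earlier results of these data known. Counts were summed per library and class over 26344 genes common to the 7 cell tables, without mitochondrial genes, and tested with edgeR 4.0.16 (quasi-likelihood, robust, TMM scaling, filterByExpr, R 4.3.3), with the library as a term, at least 10 cells in both classes, and Benjamini-Hochberg adjustment at 0.05 over all genes tested. The 10 genes that define the classes were left out of these tests. The age and preparation comparisons tested interactions of class with library group; sections carried a section term and bulk had none. Tests were two-sided. DESeq2 1.42.0, RLE size factors, no filter on low counts, stricter and deeper rules, and libraries left out in turn were alternatives. The spread estimate was changed to edgeR's current one after the earlier one called too many unchanged genes on simulated counts; with the current one, 84% of 200 genes changed by a log2 value of 2 were recovered against fibroblasts, with 11.1% of the calls false, 74% and 10.3% against urothelium, and 43.5% and 9.38% for preparation. Each cell library is a pool of animals, and none in the fits shared its age, sex mix and preparation with another. The p-values of the cell fits thus measure how the class difference varied over unlike libraries, not between replicate pools of 1 condition. The detrusor libraries also differed from each other in sex mix and in urothelial cells. For bulk libraries and sections of 1 age, the labels do not say whether they came from separate animals, and their spread may be technical. Doublets were scored against simulated pairs of barcodes (scikit-learn 1.9.0), marking 0.8% of barcodes per 1000 in a library. Exact permutation tests and binomial intervals used scipy 1.17.1. Cells were thinned to 1000 UMIs with a fixed seed.

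Genes named were, against fibroblasts and urothelium, the 12 largest rises and 10 largest falls with at least 50 CPM in the higher class and 1 sign in every library, without predicted genes; for interactions and spots the 6 and 6 largest with at least 20 CPM; in bulk the rule genes, regulators and surface genes; and any gene of the lists. Genome positions and sequences come from RefSeq's GRCm38.p6 tables. Some results are not reported here.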

Additional observations from a re-analysis of the deposited data

Results flagged for a closer look

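The mesothelial difference from fibroblasts differed between the detrusor and whole-bladder libraries, by the test of that difference, for 16 genes, of which the rule for named genes chose 12. As differences of log2 fold changes, Bdnf stood at 5.06, Cgn at 3.33, Smpd3 at 3.11, Fxyd3 at 2.87, Ano1 at 2.65 and Spint2 at 2.18 (larger in the detrusor libraries). Atp8b1 stood at -4.95, Krtdap at -3.59, Islr at -3.59, Pi16 at -3.53, Scara5 at -3.14 and Adh1 at -3.11. Their adjusted p in edgeR's quasi-likelihood test ran from 0.00383 (Bdnf) to 0.0492 (Pi16). In the members, the Bdnf and Smpd3 levels of both detrusor libraries exceeded those of all 4 whole-bladder libraries. This did not hold for the fibroblasts, whose levels are given above. Each of the 12 lost its call under some of 14 alternatives, from 3 (Bdnf and Scara5) to 9 (Ano1).

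The nucleus library entered no comparison of the report. The rule for cells kept 46 of 3472 nuclei, 1.32% (95% exact binomial interval 0.972 to 1.76), with a median of 1289 UMIs. At least 2 of the 6 markers outside the rule had a UMI in 40 of the 46 (87.0%) and in 15 of 234 fibroblast nuclei (6.41%), and after thinning to 1000 UMIs in 76.5% and 4.84%. This is 1 library without replicates, so values carry exact Poisson intervals that cover counting error only. Wt1 was at 505 CPM (35 UMIs, 352 to 702) in the members and 9.55 CPM (49 UMIs, 7.07 to 12.6) in the other nuclei. Gpm6a was at 837 CPM (58 UMIs, 635 to 1082) in the members and 10.1 CPM (52 UMIs, 7.57 to 13.3) in the other nuclei. Rspo1, the Wnt-enhancing ligand, was at 649 CPM (45 UMIs, 474 to 869) in the members and 5.85 CPM (30 UMIs, 3.95 to 8.35) in the other nuclei. The complement protein C3 was at 4530.0 CPM (314 UMIs, 4043 to 5059.8) in the members and 90.5 CPM (464 UMIs, 82.4 to 99.1) in the other nuclei, and the protease inhibitor Slpi at 2467 CPM (171 UMIs, 2111 to 2866) in the members and 42.1 CPM (216 UMIs, 36.7 to 48.1) in the other nuclei. Krt19 stood less apart, at 808 CPM (56 UMIs, 610.3 to 1049) in the members and 603 CPM (3093 UMIs, 582 to 625) in the other nuclei. The remaining simple epithelial keratins were lower in the members than in the other nuclei. Krt7 was at 563 against 807 CPM, Krt8 at 173 against 429 CPM and Krt18 at 390 against 670 CPM. Other cells' genes were higher in the member nuclei too: Lyz2, of macrophages, was at 1284 CPM against 84.8 CPM, C1qa at 289 against 35.1, C1qb at 259.7 against 33.9, C1qc at 259.7 against 22.6, and the fibroblast gene Dcn at 8497 against 1111. The fibroblast limit was passed by 17 of the 46, and the part of other cells' RNA in these values was not tested. Calb2 had 0 UMIs in the members and in the other nuclei.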

How the results depend on the processing

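Against fibroblasts, leaving out 1 library at a time gave 2359 to 2988 called genes, and the fit with no library term (no replicate block across the classes) 1187 against 3138. Against urothelium the range was 3912 to 4835, and 2777 without the library term against 4879. For preparation, leaving out 1 library gave 0 to 184 calls, DESeq2 30, the earlier edgeR spread estimate 72 and the stricter rule 1, against 16. RLE scaling moved the median of all genes in that comparison from 0.14 to 0.01 on the log2 scale and called 15 genes. For age the earlier spread estimate called 9 genes, and the other 7 alternatives and the 4 fits without 1 library called 0. Marker spots gave 5569 to 6724 calls without 1 section, and 813 under the full rule for cells, which was chosen after seeing the data. Each rule gene kept its direction and call, with leave-out ranges of 6.82 to 7.64 for Upk3b, 9.24 to 9.70 for Msln, 8.75 to 10.09 for Lrrn4 and 1.48 to 2.00 for Nkain4. The difference in share ran from 0.368 to 1.44 percentage points without 1 library and from 0.113 to 1.10 under the other alternatives, and stayed above 0. Over 178 gene and comparison pairs of the text, 2176 of 2336 alternative values kept direction and call, 142 lost the call, 18 gained it and 0 reversed. In bulk, 12 to 15 of the 27 genes were called without 1 library and 14 with the replicate block. Deviations of same-numbered bulk libraries correlated at 0.30, 0.39 and -0.06, which does not decide whether the numbers pair them. The block moved the count over all genes from 9859 to 10330. A fit without the members over the fibroblast limit was not run, since 5 of the 7 libraries would keep 0 or 1 cell. Depth limits the male libraries most, with medians of 2444 and 1976 UMIs per member. The earlier spread estimate was added after simulated counts were seen.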
